A study of Mus musculus with 24 samples.

Results

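The 10 genes described here set how a cell passes from the G1 phase of the cell cycle into DNA synthesis. They are the 3 D-type cyclins (Ccnd1, Ccnd2 and Ccnd3), their kinases Cdk4 and Cdk6, the Cip/Kip inhibitors Cdkn1a (p21), Cdkn1b (p27) and Cdkn1c (p57), and the INK4 genes Cdkn2a (p16Ink4a and p19Arf) and Cdkn2c (p18Ink4c). They were taken by symbol from a table of 54532 genes. All 10 were found, and all 10 were among the 15035 genes that passed a filter on low counts and were tested. A D cyclin bound to Cdk4 or Cdk6 phosphorylates the retinoblastoma protein RB, which releases E2F factors and the S phase genes they drive. INK4 proteins bind the kinases and keep D cyclins from them, and Cip/Kip proteins bind whole cyclin-kinase complexes. In macrophages, macrophage colony-stimulating factor (M-CSF) is the signal that induces D cyclins and keeps the cells cycling. Receptor activator of NF-κB ligand (RANKL) turns these macrophages into osteoclasts, the cells that resorb bone, and the precursors leave the cell cycle before they fuse.

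The samples were cultures of mouse bone marrow macrophages, sequenced after 3 or 5 days either without RANKL (M-CSF only) or with RANKL added. Control cells were Rosa26-Runx1tg/+, with a Runx1 transgene at the Rosa26 locus and no Cre. The other cells were LysM-Cre;Rosa26-Runx1tg/+, in which Cre from the lysozyme 2 gene, active in myeloid cells, is meant to switch on the same transgene. Each of the 8 groups of genotype, medium and day had 3 libraries, numbered 1 to 3, for 24 in all. The RANKL medium held RANKL at 50 ng/mL and M-CSF at 30 ng/mL, 15000 cells were seeded per well, and the sources used here do not give the M-CSF dose without RANKL. The labels do not say whether a number stands for an animal or a culture, nor give the sex of the mice, so p-values measure only the spread between these samples, which may be technical.

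Total counts ran from 18975750 to 36523995 per library. Macrophage markers were present in every group (summed level 19235 to 35991 CPM, the usual depth-scaled count, with M-CSF and 5122 to 9058 with RANKL). Osteoclast markers summed to 110 to 175 CPM with M-CSF and to 36220 to 59916 CPM with RANKL. Runx1 itself was not shown to be higher in the LysM-Cre libraries by edgeR's test (adjusted p 1 in each of the 4 group pairs). Its log2 difference was 0.12 and 0.17 for day 3 M-CSF and RANKL and 0.0036 and 0.23 for day 5. The largest had a 95% interval of -0.05 to 0.51. The genotype below is thus that of the labels. The 4 LysM-Cre libraries numbered 3 stood apart: Y-linked genes had 542 to 847 counts there and 0 to 1 in the other 20 libraries, and Xist had 2 to 12 counts against 14963 to 28379. Values without these 4 libraries are given where they end or create a call.

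**Figure D1:**
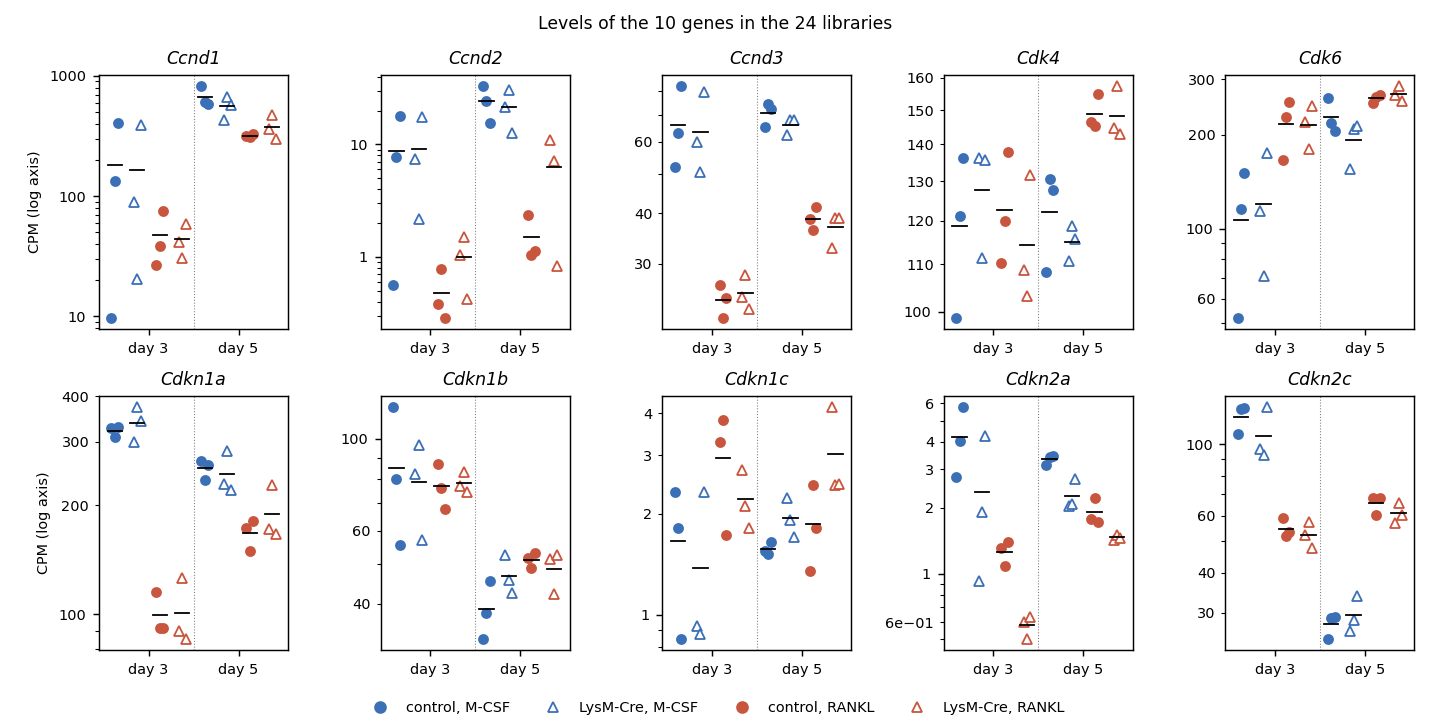
CPM of each of the 10 genes (log axis) in the 8 groups of genotype, medium and day. Each point is 1 library and each bar the mean of 3; Ccnd1 spans 9.74 to 404 CPM within the control day 3 M-CSF group, whereas Cdkn2c stays between 108 and 129 CPM there.

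With RANKL, Ccnd2, Ccnd3, Cdkn1a, Cdkn2a and Cdkn2c were lower and Cdk6 higher at day 3 in both genotypes. A call means an adjusted p (Benjamini-Hochberg) below 0.05 in edgeR's quasi-likelihood test over all 15035 genes. In control cells at day 3, 1 of the 10 genes was called higher and 5 lower, where 29.5% of all tested genes were called higher, 29.7% lower and 59.1% in either direction. The LysM-Cre libraries of day 3 gave the same counts, with a background of 29.1% higher, 30.1% lower and 59.2% in all. At day 5, 2 were called higher and 3 lower in control cells (background 26.4%, 23.1% and 49.4%), and 2 higher and 2 lower in LysM-Cre cells (27.5%, 24.9% and 52.4%). The share of the 10 genes called was thus near that of all genes in each of these comparisons. Their median log2 difference was -1.29 and -1.17 at day 3 in control and LysM-Cre cells and -0.20 and -0.16 at day 5, beside medians between -0.03 and 0.03 over all tested genes. In bulk RNA, fewer cells of a type and less RNA per cell cannot be told apart.

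**Figure D2:**
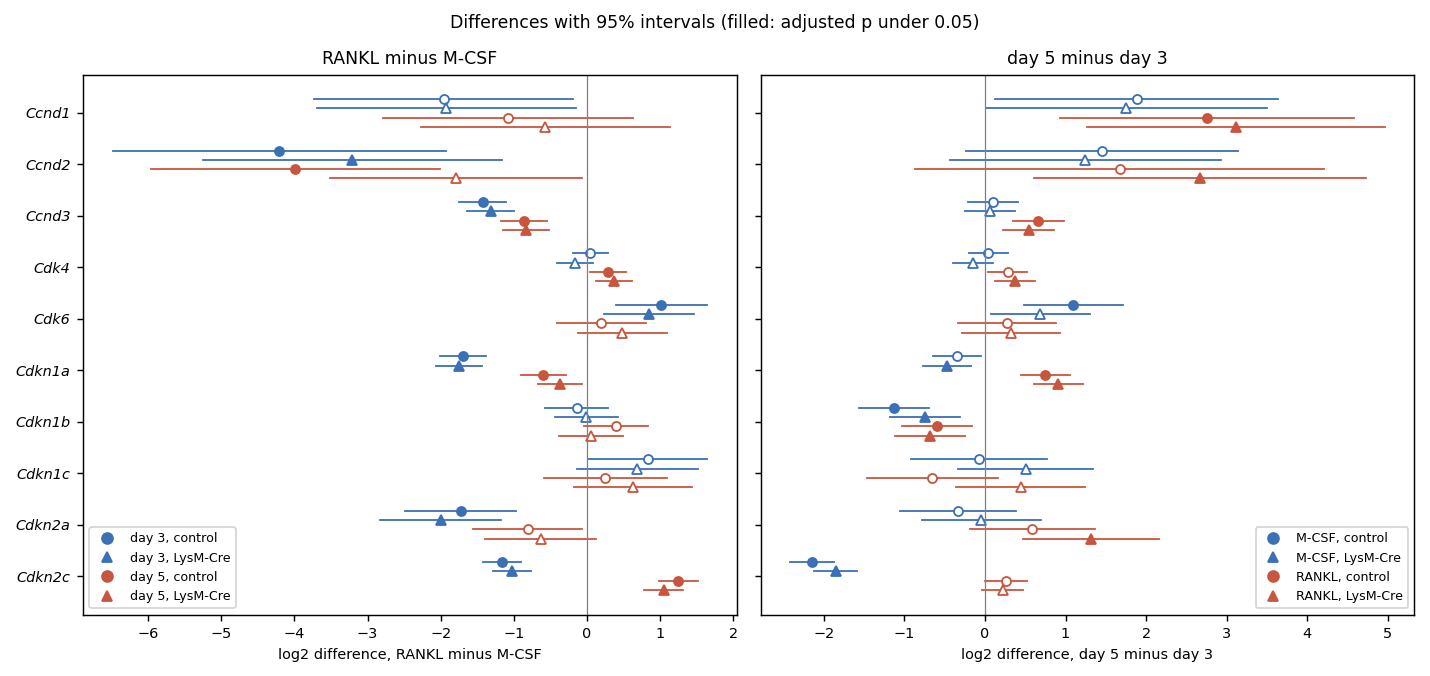
Log2 difference of each of the 10 genes between RANKL and M-CSF, by day and genotype, with 95% intervals from the edgeR fit; filled points were called at an adjusted p under 0.05. Cdkn2c lies at -1.16 and -1.02 at day 3 and at 1.25 and 1.05 at day 5.

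Among the D cyclins, Ccnd3 gave the steadiest fall with RANKL. Cyclin D3 is the D cyclin best known for its part in blood cell lineages. In control cells at day 3, Ccnd3 was at 52.0, 63.2 and 82.3 CPM with M-CSF and at 26.6, 22.1 and 24.7 CPM with RANKL in libraries 1, 2 and 3. At day 5 it was at 65.1, 74.3 and 72.2 CPM with M-CSF and at 38.6, 36.3 and 41.4 CPM with RANKL. Every RANKL library lay under every M-CSF library on both days. The difference was -1.43 on the log2 scale (SE 0.15, adjusted p 7.79e-08) at day 3 and -0.86 (SE 0.15, adjusted p 6.64e-05) at day 5. In LysM-Cre cells Ccnd3 ran from 50.6 to 79.4 CPM with M-CSF and from 23.3 to 39.0 CPM with RANKL over both days, and fell by 1.32 and 0.84 on the log2 scale at days 3 and 5 (adjusted p 2.3e-07 and 8.61e-05). Over the 8 groups its means ranked the 4 M-CSF groups first (63.4 to 70.5 CPM), then the day 5 RANKL groups (36.9 and 38.8 CPM), then the day 3 RANKL groups (24.5 and 25.4 CPM), and ranges of neighbours overlapped except between these 3 sets. Part of Ccnd3 (361 bases) overlaps Bysl, and the sources used here do not say whether counting used the strand, so reads from such a stretch cannot be assigned.

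Ccnd2, the cyclin D2 gene, was the lowest of the D cyclins in CPM per kilobase of transcript in every group, and it fell furthest with RANKL. With M-CSF at day 3, control libraries 1, 2 and 3 held 0.559, 7.74 and 18.02 CPM of it, and with RANKL 0.380, 0.774 and 0.288 CPM. At day 5 the same group pair held 33.0, 24.2 and 15.4 CPM against 2.38, 1.04 and 1.13 CPM. The ranges overlapped at day 3 through M-CSF library 1 and were apart at day 5. The fall was -4.21 (SE 1.09, adjusted p 0.00243) at day 3 and -3.99 (SE 0.95, adjusted p 0.00148) at day 5. Its size rests on few reads: control RANKL libraries 1, 2 and 3 held 9, 15 and 6 counts at day 3 and 51, 22 and 25 at day 5. In LysM-Cre cells Ccnd2 was at 7.48, 2.15 and 17.6 CPM with M-CSF and 1.03, 1.51 and 0.423 CPM with RANKL at day 3, a called fall of -3.21 (adjusted p 0.00806) that was lost without LysM-Cre day 3 M-CSF library 3 (adjusted p 0.0651) or without all 4 libraries numbered 3 (0.127). At day 5 the LysM-Cre libraries held 21.4, 30.2 and 12.6 CPM with M-CSF and 11.1, 7.06 and 0.829 CPM with RANKL, and the difference of -1.79 was not called (adjusted p 0.0759); without LysM-Cre day 5 RANKL library 1 it was -2.51 (0.0444), and without control day 3 M-CSF library 1 it was -1.82 (0.0398).

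A list of 9 stromal and osteoblast markers, 2 of which passed 10 CPM in LysM-Cre day 5 RANKL, moved with Ccnd2 among these last libraries. Its summed level was 305, 207 and 30.5 CPM in LysM-Cre day 5 RANKL libraries 1, 2 and 3, the order of Ccnd2 there, and 34.5 to 81.9 CPM in the control libraries of that medium and day. With M-CSF at day 5 it was 121, 103 and 12.9 CPM in control and 142.0, 142.5 and 19.3 CPM in LysM-Cre libraries. The osteoblast gene Bglap reached at most 0.0519 CPM. The part of these markers in the Ccnd2 values was not tested.

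Ccnd1, the cyclin D1 gene and a classical M-CSF target, differed more between libraries of a group with M-CSF at day 3 than any other of the 10. Control libraries 1, 2 and 3 were at 9.74, 135 and 404 CPM with M-CSF and at 26.7, 38.7 and 75.9 CPM with RANKL, and LysM-Cre libraries at 89.7, 20.5 and 389 CPM with M-CSF and 41.6, 30.6 and 59.1 CPM with RANKL. The order of the 3 libraries was the same in both media: 1, 2, 3 from low to high in control and 2, 1, 3 in LysM-Cre cells. At day 5 the spread was small: control cells held 824, 612 and 586 CPM with M-CSF and 317, 310 and 327 CPM with RANKL. The day 5 control groups did not overlap, and the difference of -1.08 (SE 0.82) was not called when all 8 groups shared an estimate of spread (adjusted p 0.292) but was called when only those 6 libraries were fitted (0.000246). LysM-Cre cells at day 5 held 432, 674 and 578 CPM with M-CSF and 363, 476 and 297 CPM with RANKL, which overlap (-0.57, adjusted p 0.583).

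At day 3 the Ccnd1 difference between media sat at the threshold, at -1.96 (SE 0.85, adjusted p 0.0538) in control and -1.92 (SE 0.85, 0.0577) in LysM-Cre cells. Leaving out control day 3 M-CSF library 1 gave -2.52 (adjusted p 0.00712) in control and -1.92 (0.0206) in LysM-Cre cells, and leaving out LysM-Cre day 3 M-CSF library 2 gave -1.96 (0.0344) and -2.45 (0.0172). The control comparison was also called without LysM-Cre day 3 M-CSF library 3 (0.0309). The LysM-Cre comparison was called as well without library 1 of its own day 3 M-CSF group (0.0443) or control day 3 M-CSF library 3 (0.0423). In the order of the 8 group means, the 4 day 5 groups (318 to 674 CPM) came before the 4 day 3 groups (43.8 to 183 CPM), and each neighbour overlapped the next. A stretch of 1771 bases of Ccnd1 overlaps Oraov1.

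Cdk4 was the flattest of the 10 genes, and Cdk6 rose with RANKL at day 3. Both proteins are the catalytic partners of D cyclins. Cdk4 stayed between 98.8 and 157 CPM over the 24 libraries. At day 3 control libraries 1, 2 and 3 were at 98.8, 121 and 136 CPM with M-CSF and 110, 120 and 138 CPM with RANKL (0.05, SE 0.12, adjusted p 0.747). At day 5 control libraries were at 108, 131 and 128 CPM with M-CSF and 147, 145 and 155 CPM with RANKL, and LysM-Cre libraries at 111, 119 and 116 against 145, 157 and 143 CPM. Every RANKL library was above every M-CSF library at day 5 in each genotype, by 0.29 (adjusted p 0.0495) and 0.37 (0.0129) on the log2 scale. The control call was lost in 21 of 24 fits that left out 1 library (adjusted p up to 0.299) and without the 4 libraries numbered 3 (0.0575). The LysM-Cre call was lost without LysM-Cre day 5 M-CSF library 1 (0.0639) or day 5 RANKL library 2 (0.0529). Tspan31 overlaps 641 bases of Cdk4, and reads there cannot be assigned.

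Cdk6 was at 52.1, 116 and 151 CPM in control day 3 M-CSF libraries 1, 2 and 3 and at 166, 228 and 254 CPM with RANKL. All 3 RANKL libraries lay above the M-CSF range, by 1.02 on the log2 scale (SE 0.30, adjusted p 0.00574). In LysM-Cre cells at day 3 it was at 114, 70.6 and 175 CPM with M-CSF and 219, 180 and 247 CPM with RANKL, again without overlap (0.85, SE 0.29, adjusted p 0.018). That call was lost without LysM-Cre day 3 M-CSF library 1 (0.0508) or 2 (0.113), without day 3 RANKL library 3 (0.0709), and with no filter on low counts (0.0629). At day 5 the media did not differ by the test, with control libraries at 261, 218 and 205 CPM with M-CSF and 251, 264 and 267 CPM with RANKL (0.19, adjusted p 0.619). LysM-Cre libraries held 156, 208 and 214 CPM with M-CSF and 267, 285 and 255 CPM with RANKL at day 5, which do not overlap but were not called (0.48, adjusted p 0.174; 0.00832 with only these 6 libraries fitted). Neighbours in the order of the 8 group means of Cdk6, from 106 CPM in control day 3 M-CSF to 269 CPM in LysM-Cre day 5 RANKL, all overlapped. For Cdk4 the only gap in that order was below the day 5 RANKL groups.

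Windows before a RefSeq start of Cdk4 and of Cdk6 are shown because these kinase genes moved differently at day 3 and hold different motif matches. Both are the 250 bases before the RefSeq start on build GRCm38.p6, 5′ to 3′ on the plus strand, at chr10:127063285-127063534 for Cdk4 and chr5:3343643-3343892 for Cdk6. The Cdk4 window ends at the start of the gene as counted, whereas the Cdk6 window lies inside its gene, which starts at chr5:3341485. Capitals mark matches on either strand to the MYC E-box CACGTG, the RUNX letters TGTGGT or TGCGGT, or the SP1 letters GGGCGG.
Cdk4: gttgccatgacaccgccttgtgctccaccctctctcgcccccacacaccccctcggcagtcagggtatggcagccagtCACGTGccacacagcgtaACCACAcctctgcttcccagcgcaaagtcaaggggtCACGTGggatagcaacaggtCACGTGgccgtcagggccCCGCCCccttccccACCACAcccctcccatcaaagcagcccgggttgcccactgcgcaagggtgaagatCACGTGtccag
Cdk6: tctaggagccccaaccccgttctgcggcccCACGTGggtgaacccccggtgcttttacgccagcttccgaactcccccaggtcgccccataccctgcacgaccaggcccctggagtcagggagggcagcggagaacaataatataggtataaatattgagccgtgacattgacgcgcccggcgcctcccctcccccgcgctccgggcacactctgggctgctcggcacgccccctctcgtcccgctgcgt
The Cdk4 window held 4 matches to the E-box, at 172, 118, 98 and 11 bases before the start, and the Cdk6 window held 1, at 220 bases. An E-box occurred in 6.02% of all 32851 RefSeq windows of this length. The Cdk4 window also held RUNX letters at 154 and 66 bases, which 18.6% of all windows hold, and was the single window of the 10 genes to do so. RefSeq windows were found for 7 of the 10 genes (11 windows); Ccnd1, Ccnd2 and Cdkn1c had none. SP1 letters, in 32.7% of all windows, were in 7 of the 11. A match describes these letters and is no evidence of binding.

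Of the Cip/Kip genes, Cdkn1a fell with RANKL and Cdkn1b did not. Cdkn1a encodes p21, a p53 target. Control libraries 1, 2 and 3 held 328, 308 and 329 CPM of Cdkn1a with M-CSF at day 3 and 115, 91.7 and 91.3 CPM with RANKL. In LysM-Cre cells the day 3 values were 299.9, 373 and 342 CPM against 89.8, 126 and 85.5 CPM. Cdkn1a was thus 3.23-fold and 3.37-fold lower with RANKL at day 3 in control and LysM-Cre cells, without any overlap of the groups (-1.69, SE 0.15, adjusted p 4.09e-09, and -1.75, SE 0.15, adjusted p 2.43e-09). At day 5 control libraries were at 265, 235 and 259 CPM with M-CSF and at 173, 149 and 181 CPM with RANKL, a smaller fall of -0.60 (SE 0.15, adjusted p 0.00188). LysM-Cre libraries at day 5 were at 230, 282 and 221 CPM with M-CSF and 172, 227 and 167 CPM with RANKL. Their ranges overlapped, and the call of -0.37 (adjusted p 0.038) was lost in DESeq2's test (0.0507), with no filter (0.0706), without the 4 libraries numbered 3 (0.101), and without LysM-Cre day 5 RANKL library 1 (0.135) or 3 (0.126) or day 5 M-CSF library 2 (0.151). The 8 group means ranked day 3 M-CSF (322 and 338 CPM), day 5 M-CSF (244 and 253 CPM), day 5 RANKL (167 and 189 CPM) and day 3 RANKL (99.4 and 100 CPM), with overlap between the genotypes at each step and between LysM-Cre day 5 M-CSF and day 5 RANKL. An unnamed model, AC167363.2, overlaps 1046 bases of Cdkn1a.

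Cdkn1b encodes p27, which accumulates in quiescent cells. At day 3 it was at 119, 79.9 and 55.3 CPM in control M-CSF libraries 1, 2 and 3 and at 87.0, 76.0 and 67.5 CPM with RANKL, and at 82.0, 96.7 and 57.1 CPM against 77.0, 83.3 and 74.3 CPM in LysM-Cre libraries. These ranges overlapped, and the differences were -0.14 (95% interval -0.57 to 0.29) and -0.01 (-0.44 to 0.42). At day 5 it was at 32.9, 37.9 and 45.4 CPM against 51.6, 48.6 and 52.9 CPM in control cells, where every RANKL library was higher but the difference of 0.40 was not called (adjusted p 0.124; 0.00642 with only these 6 libraries fitted). LysM-Cre libraries at day 5 were at 52.4, 45.5 and 42.3 CPM with M-CSF and 51.1, 42.1 and 52.5 CPM with RANKL (0.06, adjusted p 0.837). The 4 day 3 groups ranked above the 4 day 5 groups, and between them lay the only gap in the order.

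Cdkn1c, the imprinted p57 gene, was low throughout, with 21 to 91 counts per library or 0.846 to 4.17 CPM. With M-CSF its group means were 1.38 to 1.95 CPM and with RANKL 1.87 to 3.02 CPM, and neighbouring groups overlapped over the whole order. It was called in none of the comparisons of medium, day or genotype. The RANKL difference at day 3 was 0.83 (adjusted p 0.0752) in control and 0.69 (0.143) in LysM-Cre cells, and it passed the threshold when the 4 libraries numbered 3 were left out (0.86, adjusted p 0.045, and 1.46, adjusted p 0.0124). Among single libraries, the control difference passed without control day 3 M-CSF library 1 (0.0341), control day 3 RANKL library 3 (0.0276) or LysM-Cre day 3 M-CSF library 3 (0.0439), and the LysM-Cre difference without that last library (0.0112).

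Cdkn2c was the one gene of the 10 that RANKL moved in opposite directions on days 3 and 5. Its product p18Ink4c is an INK4 inhibitor whose mRNA rises with E2F activity in cycling cells. At day 3 Cdkn2c was at 108, 129 and 129 CPM in control M-CSF libraries 1, 2 and 3 and at 59.1, 51.9 and 53.4 CPM with RANKL. At day 5 it was at 24.9, 28.9 and 29.1 CPM with M-CSF and at 67.9, 60.6 and 68.4 CPM with RANKL. The groups lay apart on both days, with RANKL lower at day 3 (-1.16, SE 0.12, adjusted p 7.97e-08) and higher at day 5 (1.25, SE 0.13, adjusted p 4.95e-08). LysM-Cre libraries held 96.9, 92.5 and 131 CPM against 52.3, 57.4 and 47.8 CPM at day 3, and 26.3, 28.5 and 33.9 CPM against 56.9, 65.9 and 60.6 CPM at day 5. The log2 differences there were -1.02 (adjusted p 4.4e-07) and 1.05 (5.42e-07), again without overlap. The order of the group means was day 3 M-CSF (107 and 122 CPM), the 4 RANKL groups (52.5 to 65.6 CPM) and day 5 M-CSF (27.6 and 29.6 CPM), with gaps only between these 3 sets. Outside the 10 genes, Cdkn2d, Cdkn3 and Cdc25b of the lists below were also called lower at day 3 and higher at day 5 in both genotypes. For Cdkn2d the differences were -1.47 (adjusted p 3.77e-07) and 1.10 (2.5e-05) in control cells, and -1.51 (2.51e-07) and 0.91 (0.00021) in LysM-Cre cells.

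Cdkn2a was low and fell with RANKL at day 3. It had 10 to 143 counts per library. The gene yields p16Ink4a and p19Arf from separate starts, and gene counts cannot tell these apart. Control libraries 1, 2 and 3 were at 2.75, 4.06 and 5.76 CPM with M-CSF and 1.31, 1.08 and 1.39 CPM with RANKL at day 3, and at 3.14, 3.41 and 3.45 against 1.77, 2.21 and 1.72 CPM at day 5. LysM-Cre libraries were at 0.925, 1.91 and 4.23 CPM against 0.603, 0.503 and 0.635 CPM at day 3, and at 2.03, 2.09 and 2.69 against 1.42, 1.51 and 1.46 CPM at day 5. The RANKL libraries were below the M-CSF libraries in all 4 of these pairs. The fall was called at day 3 (-1.73, SE 0.37, adjusted p 0.000374 in control and -2.002, SE 0.40, adjusted p 0.000191 in LysM-Cre cells). At day 5 it was not called (-0.81, adjusted p 0.0661, and -0.63, 0.151). The control value at day 5 passed with only the 6 compared libraries fitted (0.00628), without the 4 libraries numbered 3 (0.0216), or without control day 3 M-CSF library 1 (0.045) or LysM-Cre day 3 M-CSF library 1 (0.021) or 3 (0.0173). In the order of the group means of Cdkn2a, from 4.19 CPM in control day 3 M-CSF to 0.580 CPM in LysM-Cre day 3 RANKL, the 4 lowest groups, all with RANKL, were apart from each other.

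Windows upstream of both Cdkn2a starts and of a Cdkn2c start are shown because the starts of these INK4 genes differ in motif content. Each is the 250 bases before a RefSeq start on build GRCm38.p6, 5′ to 3′ on the minus strand, at chr4:89294620-89294869 for the p19Arf start, chr4:89282193-89282442 for the p16Ink4a start and chr4:109666757-109667006 for Cdkn2c. The Cdkn2c window lies inside the gene as counted, which runs to chr4:109667189. Capitals mark matches on either strand to the E2F letters TTTCCCGC or TTTGGCGC or to the SP1 letters GGGCGG.
Cdkn2a, p19Arf start: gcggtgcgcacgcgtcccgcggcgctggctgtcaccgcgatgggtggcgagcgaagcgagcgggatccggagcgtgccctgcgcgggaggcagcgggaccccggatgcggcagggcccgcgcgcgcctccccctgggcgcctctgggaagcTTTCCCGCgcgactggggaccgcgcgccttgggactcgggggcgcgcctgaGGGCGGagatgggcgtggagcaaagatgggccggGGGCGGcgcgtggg
Cdkn2a, p16Ink4a start: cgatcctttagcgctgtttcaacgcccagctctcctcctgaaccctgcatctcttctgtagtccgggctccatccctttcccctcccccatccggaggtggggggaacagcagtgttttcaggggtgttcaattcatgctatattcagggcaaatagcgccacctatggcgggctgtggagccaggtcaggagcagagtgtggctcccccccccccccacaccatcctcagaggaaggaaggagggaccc
Cdkn2c: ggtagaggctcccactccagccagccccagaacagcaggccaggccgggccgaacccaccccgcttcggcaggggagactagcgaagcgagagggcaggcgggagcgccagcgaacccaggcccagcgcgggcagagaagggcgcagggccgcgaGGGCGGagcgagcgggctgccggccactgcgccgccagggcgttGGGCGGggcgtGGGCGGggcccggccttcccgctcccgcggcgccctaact
The p19Arf window held the E2F letters 99 bases before its start, which 1.3% of the 32851 windows hold, and was the single window of the 10 genes with them. It held SP1 letters at 48 and 14 bases, and the Cdkn2c window shown held them at 95, 51 and 40 bases. RefSeq gives a second Cdkn2c start, whose window at chr4:109665373-109665622 held none of the 6 motifs and is not shown. The p16Ink4a window also held none of them. The other motifs were AP-1 (TGANTCA, in 6.75% of windows) and STAT (TTCNNNGAA, in 7.02%), which were in no window of the 10 genes.

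Compared per kilobase of transcript, the order of the 10 genes changed between days. With M-CSF at day 3, Cdkn1a was highest in control cells at 90.5 CPM per kilobase, followed by Cdkn2c at 45.5, Ccnd1 at 38.8 ± 42.7 (SD, n = 3), Cdk4 at 36.5 and Cdkn1b at 18.6. With M-CSF at day 5, Ccnd1 led at 143 CPM per kilobase, ahead of Cdkn1a at 71.2, Cdk4 at 37.6, Cdk6 at 16.3, Cdkn2c at 10.3, Cdkn1b at 8.51 and Ccnd3 at 8.04. Ccnd1 was thus the highest of the 10 genes at day 5 with M-CSF, whereas its rank at day 3 depended on the library.

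Between days 3 and 5, Cdkn2c was called lower with M-CSF, and Ccnd1, Ccnd3 and Cdkn1a higher with RANKL, in both genotypes. Cdkn1b was called lower in both media. With M-CSF, Cdkn2c fell by 2.14 in control and 1.85 in LysM-Cre cells on the log2 scale (adjusted p 2.37e-10 and 2.16e-09). In control cells with M-CSF, 1 of the 10 genes was called higher at day 5 and 2 lower (background 12.2%, 11.5% and 23.7% in either direction). LysM-Cre cells with M-CSF had 0 higher and 3 lower (7.17%, 7.08% and 14.3%). With RANKL, 3 were higher and 1 lower in control cells (14.1%, 12.7% and 26.8%), and 6 higher and 1 lower in LysM-Cre cells (17.6%, 15.6% and 33.2%). The titles carry the same numbers 1 to 3 at both days but do not say what a number stands for, so these comparisons were made unpaired.

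Cdkn1b fell over time in all 4 settings. The differences were -1.13 (adjusted p 0.000808) and -0.75 (0.02) with M-CSF in control and LysM-Cre cells and -0.59 (0.0407) and -0.68 (0.0159) with RANKL. The first of these was called in every fit that left out 1 library, whereas the others were lost in 4, 5 and 2 of 24 such fits (adjusted p up to 0.113, 0.142 and 0.0801), each time when a library of the compared groups was left out, and also with no filter on low counts (0.0525, 0.136 and 0.0587). The fall with M-CSF in LysM-Cre cells was also lost with only the compared libraries fitted (0.0582). Ccnd1 rose with RANKL by 2.76 (SE 0.87, adjusted p 0.0245) in control and 3.11 (SE 0.89, adjusted p 0.0109) in LysM-Cre cells. The control call was lost without control day 3 RANKL library 1 (0.12) or 2 (0.0933) or day 5 RANKL library 1 (0.0532) or 3 (0.0507) and with no filter (0.0864), and the LysM-Cre call without LysM-Cre day 3 RANKL library 2 (0.0613). With M-CSF the rise of Ccnd1 was 1.88 (adjusted p 0.11) and 1.76 (0.171), and it passed without library 3 of the day 3 M-CSF group of each genotype (3.22, adjusted p 0.0195, and 3.35, 0.0165), and in LysM-Cre cells without the 4 libraries numbered 3 (0.0478).

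With RANKL, Ccnd3 rose by 0.66 (adjusted p 0.0033) in control and 0.54 (0.0101) in LysM-Cre cells, the second lost without the 4 libraries numbered 3 (0.111). Cdkn1a rose with RANKL by 0.75 (adjusted p 0.000914) and 0.91 (0.000118). With M-CSF Cdkn1a changed by -0.35 (0.0888) and -0.47 (0.0348), and the LysM-Cre call was lost in 4 of 24 fits without 1 library (up to 0.148), without the 4 libraries numbered 3 (0.125) and with only the compared libraries fitted (0.0698). Cdk6 rose with M-CSF in control cells by 1.10 (adjusted p 0.0118; 0.0571 without control day 3 M-CSF library 1 and 0.0722 with only the compared libraries). In LysM-Cre cells it moved by 0.68 (0.126), which passed without LysM-Cre day 3 M-CSF library 3 (1.06, 0.0207) or control day 3 M-CSF library 1 (0.0449). Called in LysM-Cre RANKL cells were also Cdk4 (0.37, adjusted p 0.019), Cdkn2a (1.32, 0.0165) and Ccnd2 (2.66, 0.0436). Of these, Cdk4 was lost without LysM-Cre day 3 RANKL library 1 (0.0784) or 2 (0.1) or day 5 RANKL library 2 (0.0788), Cdkn2a without day 3 RANKL library 2 (0.0588), and Ccnd2 in 15 of 24 such fits (up to 0.19) and with no filter (0.131). Cdk4 with RANKL in control cells (0.28, adjusted p 0.0832) passed without control day 3 RANKL library 3 (0.0384). With only the compared libraries fitted, Cdk4 (0.0341), Ccnd2 (1.66, 0.0246) and Cdkn2c (0.26, 0.0353) passed with RANKL in control cells, and Cdkn1a passed with M-CSF in control cells (-0.37, 0.0302).

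The response to RANKL differed between days for Cdkn2c and Cdkn1a in both genotypes. The test took the RANKL difference at day 5 minus that at day 3. In control cells it called 2 of the 10 genes, both higher (background 7.26% higher, 6.73% lower, 14.0% in all), and in LysM-Cre cells 3, all higher (8.09%, 7.13% and 15.2%). For Cdkn2c the change was 2.40 (SE 0.18, adjusted p 3.2e-09) in control and 2.07 (SE 0.18, adjusted p 3.59e-08) in LysM-Cre cells. For Cdkn1a it was 1.10 (SE 0.21, adjusted p 0.000943) and 1.38 (SE 0.21, adjusted p 7.89e-05), so that its fall with RANKL was smaller at day 5. Cdk4 passed in LysM-Cre cells alone (0.52, SE 0.17, adjusted p 0.0362), a call lost in 10 of 24 fits that left out 1 library (up to 0.101), and the genotypes were not shown to differ in it. Ccnd3 (0.57 in control and 0.48 in LysM-Cre cells), Cdkn1b (0.54 in control cells) and Cdkn2a (1.37 in LysM-Cre cells) were not called and passed only when a single day 3 M-CSF library was left out: control library 1 (0.0242) or LysM-Cre library 3 (0.0458) and LysM-Cre library 2 (0.0419) for Ccnd3, control library 3 (0.0487) for Cdkn1b, and LysM-Cre library 1 (0.0109) for Cdkn2a.

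None of the 10 genes was called between the genotypes of the labels. edgeR called 0 of 15035 genes (0%) in each of the 4 pairs of LysM-Cre and control groups, and 0 (0%) for the difference in RANKL response on either day. At an unadjusted p under 0.05 it had 530, 258, 948 and 457 genes for day 3 M-CSF, day 3 RANKL, day 5 M-CSF and day 5 RANKL, and 242 and 481 for the responses at days 3 and 5. DESeq2 called 17 genes for day 5 M-CSF and 0 in the other 5 comparisons. Without the 4 LysM-Cre libraries numbered 3, edgeR called 35, 6, 110, 39, 0 and 7 genes in that order, and none of the 10.

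Cdkn2a had the most regular difference between these labels. In the values above, every LysM-Cre library was under every control library for day 3 RANKL, day 5 M-CSF and day 5 RANKL, a pattern that 2.85%, 8.03% and 4.95% of tested genes showed. For day 3 M-CSF the ranges of Cdkn2a overlapped (background 2.69%). Cdkn1c was apart in the other direction for day 5 M-CSF, at 1.70 to 2.23 CPM in LysM-Cre and 1.52 to 1.65 CPM in control libraries. These were 36 to 46 and 28 to 32 counts, and the nearest libraries lay about 1 count (0.05 CPM) apart. The share of all genes apart in that direction was not computed, so nothing is read from it. The log2 differences of Cdkn2a, LysM-Cre minus control, were -0.84 and -1.11 for day 3 M-CSF and RANKL and -0.55 and -0.38 for day 5. Their unadjusted p was 0.0256, 0.0136, 0.132 and 0.313 in edgeR, none of which passed adjustment. Ccnd2 was at 11.1, 7.06 and 0.829 CPM in LysM-Cre and 2.38, 1.04 and 1.13 CPM in control day 5 RANKL libraries, which overlap (2.03, unadjusted p 0.0427 in edgeR). Runx1 was not shown to be higher in the LysM-Cre libraries, though for day 5 RANKL the interval of its log2 difference ran from -0.05 to 0.51. Whether any of these differences follows from more Runx1 was not tested, and none is assigned to it.

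Ccnd1 and Cdkn1b mirrored each other over the 24 libraries, with the largest r in size of all pairs of the 10 genes. Pearson's r of their log2 CPM was -0.945 and Spearman's rho -0.915, r was -0.919 without the 2 libraries farthest from the median of Ccnd1, and the deviations from the group means gave -0.924. In control day 3 M-CSF, for example, library 1 had the lowest Ccnd1 (9.74 CPM) and the highest Cdkn1b (119 CPM), and library 3 the highest Ccnd1 (404 CPM) and the lowest Cdkn1b (55.3 CPM) of the group. The libraries share groups, medium and scaling, so this is a description with no test.

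**Figure D3:**
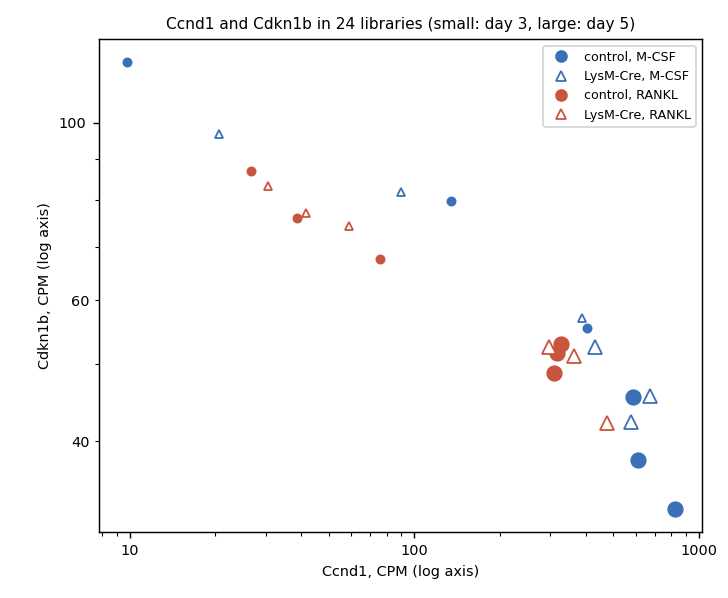
Cdkn1b against Ccnd1 in 24 libraries, both in CPM on log axes, by medium, day and genotype. The points fall along 1 descending line (Pearson's r -0.945), with day 5 libraries at high Ccnd1 and the day 3 M-CSF libraries spread along its length.

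The genes closest to a member were taken as the 2 with the highest r of log2 CPM over the 24 libraries among 10497 genes. For Ccnd1 they were the chemokine gene Ccl2 (r 0.985) and Mcm2, a subunit of the replicative helicase (0.972). Ccnd1 also followed the summed level of 20 S phase genes (r 0.933 over libraries and 0.963 for deviations from group means). In control day 3 M-CSF libraries 1, 2 and 3 that sum was 843, 1868 and 2376 CPM, the order of Ccnd1, and at day 5 it stayed between 1928 and 2372 CPM in all groups. Ccnd3 was closest to Emilin2 (0.982) and Plek (0.980), Ccnd2 to Hdac4 (0.937) and Slc38a10 (0.927), Cdk4 to Rad18 (0.918) and the cell cycle factor Mybl2 (0.915), and Cdk6 to Bpnt1 (0.985) and Mettl1 (0.980). Cdkn1a lay closest to Sf3b2 (0.973) and Cnpy4 (0.971), Cdkn1b to Stk38 (0.976) and Frat2 (0.967), Cdkn1c to Wdr34 (0.721) and Nenf (0.711), and Cdkn2a to Gorasp1 (0.892) and Gng12 (0.876).

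Cdkn2c was closest to the centromere histone gene Cenpa (r 0.934) and the kinetochore gene Knstrn (0.933), and it followed mitosis genes across groups. Against the summed level of 20 mitosis genes, r was 0.881 and rho 0.863 over the 24 libraries, and 0.860 without the 2 libraries farthest from the median. Deviations from the group means gave 0.154, so the relation lay between groups and not among libraries of a group. Control libraries 1, 2 and 3 summed to 2421, 2823 and 3130 CPM of mitosis genes with M-CSF and 945, 1045 and 1518 CPM with RANKL at day 3. At day 5 they summed to 441, 409 and 475 CPM with M-CSF and 2816, 2571 and 2459 CPM with RANKL. Mitosis genes were thus low with M-CSF and high with RANKL at day 5. Ccnd1 had an r of -0.208 with their sum over the 24 libraries, but deviations from the group means gave 0.615, so within groups Ccnd1 had the higher r of the pair, a difference that was not tested.

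**Figure D4:**
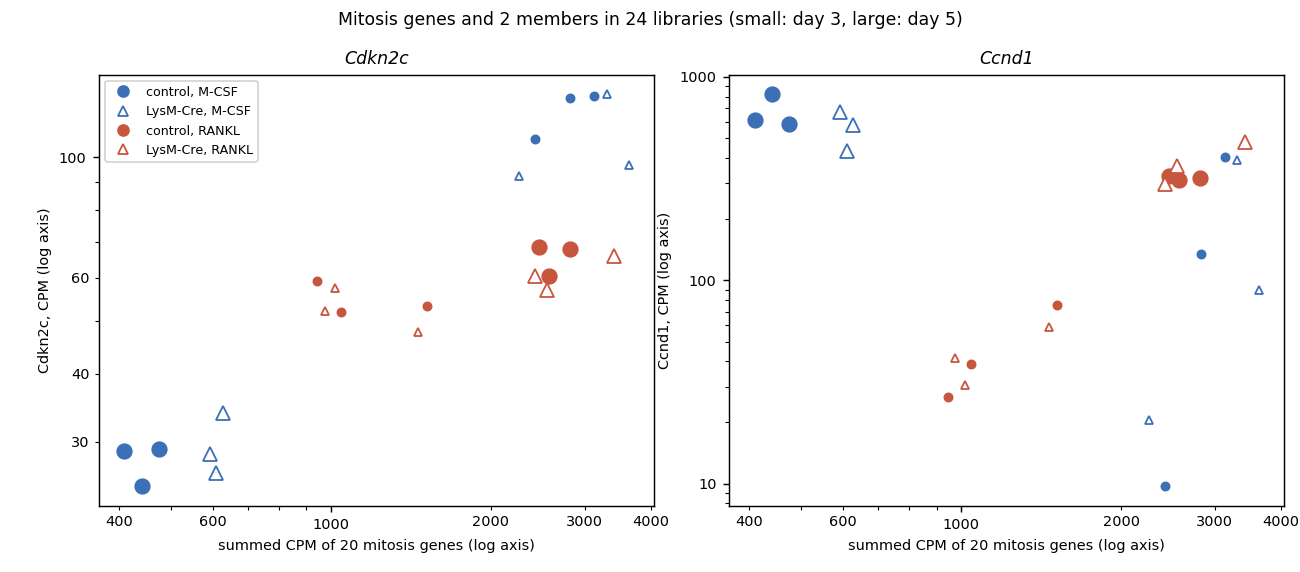
Cdkn2c and Ccnd1 in CPM against the summed CPM of 20 mitosis genes in 24 libraries, log axes, by medium, day and genotype. Across all libraries Cdkn2c rises with the sum (r 0.881) and Ccnd1 does not (r -0.208); as deviations from group means the r is 0.154 for Cdkn2c and 0.615 for Ccnd1.

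Other genes of the pathway were counted in 8 lists, whose medians are given beside -0.03 and 0.03 for all tested genes of control cells at days 3 and 5. Of all tested genes 59.1% and 49.4% were called in these comparisons. The shares of the lists other than mitosis lay on both sides of that, and nothing particular to a list is read from its count. All 20 mitosis genes fell with RANKL at day 3 (median -1.23) and rose at day 5 (median 2.82) in control cells, with the same counts in LysM-Cre cells (medians -1.35 and 2.51). Cenpf, a kinetochore protein gene, changed by -1.70 at day 3 (adjusted p 2.02e-06), and Ube2c, a conjugating enzyme of the anaphase-promoting complex, by 3.99 at day 5 (1.24e-10). Over time all 20 fell with M-CSF (medians -2.84 and -2.42 in control and LysM-Cre cells) and rose with RANKL (1.22 and 1.30). Macrophage markers were lower and osteoclast markers higher with RANKL in every library, and their part in these counts was not tested.

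The RB and E2F list, upstream of S phase, had 1 of 13 genes higher and 9 lower at day 3 in control cells (median -0.68), and 1 higher and 3 lower at day 5 (median -0.03). E2f2 fell from 57.7 ± 13.5 to 13.8 ± 2.06 CPM (SD, n = 3) at day 3 (-2.07, adjusted p 1.36e-08), while E2f3 rose by 0.62 (0.0413). Rb1 fell from 75.2 ± 7.27 to 29.9 ± 0.884 CPM at day 5 (-1.33, adjusted p 1.37e-06), and E2f5 rose by 0.49 (0.0183). S phase targets of E2F had 2 of 20 higher and 8 lower at day 3 (median -0.63) and 5 higher and 0 lower at day 5 (median 0.00031). Among them the licensing factor gene Cdt1 rose by 1.10 (adjusted p 0.000406) and Gins2 fell by 1.08 (7.12e-05) at day 3, and Rrm2, of ribonucleotide reductase, rose by 1.22 (0.0188) at day 5. Single libraries moved these control counts. The called S phase genes at day 3 became 18 without control day 3 M-CSF library 1 and 6 without library 3, and at day 5 became 3 without day 5 M-CSF library 1 or 2. The called RB and E2F genes at day 5 became 1 without control day 5 RANKL library 3, and 2 without library 1 or 2 of that group or day 5 M-CSF library 2. In LysM-Cre cells the RB and E2F list had 0 higher and 10 lower at day 3 and 1 and 4 at day 5, and the S phase list 2 and 12, then 5 and 0. At day 5 the called RB and E2F genes there became 3 without LysM-Cre day 5 M-CSF library 1 or day 5 RANKL library 3, and the called S phase genes 3 when LysM-Cre day 5 M-CSF library 1, 2 or 3 or day 5 RANKL library 2 was left out.

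Other G1/S cyclins, kinases and phosphatases gave 1 higher and 4 lower of 11 at day 3 (median -0.21) and 4 higher and 0 lower at day 5 (0.27) in control cells. The phosphatase gene Cdc25b fell by 1.76 at day 3 (adjusted p 2.1e-08), Cdk7 of the CDK-activating kinase rose by 0.40 (0.00379), and Cdc25c rose by 2.97 at day 5 (3.81e-09). LysM-Cre cells had 2 higher and 5 lower, then 4 and 0. Other CDK inhibitors and regulators gave 2 higher and 6 lower of 12 at day 3 (median -0.29) and 5 higher and 2 lower at day 5 (-0.19), and in LysM-Cre cells 2 and 6, then 6 and 4. Cdkn2b, the p15Ink4b gene beside Cdkn2a, moved opposite to it at day 3: from 1.95 ± 1.12 with M-CSF to 19.6 ± 2.72 CPM with RANKL in control cells (3.31, SE 0.45, adjusted p 2.7e-06), and by 3.30 in LysM-Cre cells (2.75e-06). At day 5 it was at 16.9 ± 2.22 CPM with M-CSF and 9.27 ± 0.688 CPM with RANKL, a difference that was not called (-0.87, adjusted p 0.0785). The antiproliferative gene Btg2 fell by 2.41 and 1.81 at days 3 and 5 (9.33e-05 and 0.00291), and the phosphatase gene Cdkn3 rose by 3.73 at day 5 (1.14e-10).

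A list of p53 targets apart from Cdkn1a, which also holds the p53 gene Trp53 itself, gave 3 higher and 7 lower of 16 at day 3 (median -0.27) and 7 higher and 3 lower at day 5 (0.54) in control cells, and 2 and 7, then 8 and 5, in LysM-Cre cells. Trp53 was among the higher genes in control cells on both days (0.34 and 0.62, adjusted p 0.0237 and 0.000275), and in LysM-Cre cells at day 5. Sesn1 fell by 2.23 and 2.36 at days 3 and 5 (adjusted p 4.18e-07 and 3.65e-07). Perp had 0 counts in the 6 control M-CSF libraries and was at 8.38 ± 1.83 and 4.05 ± 1.13 CPM (SD, n = 3) with RANKL at days 3 and 5. Genes for the turnover of D cyclins and p27 gave 6 higher and 4 lower of 16 at day 3 (0.15) and 6 and 3 at day 5 (0.15), and in LysM-Cre cells 5 and 4, then 7 and 3. Among these, the ubiquitin ligase subunit Ubac1 rose by 1.496 (adjusted p 1.04e-10) and Cks1b, a cofactor for p27 breakdown, fell by 1.00 (0.00321) at day 3. At day 5 Cks2 rose by 2.49 (1.11e-08), and Ambra1, the adaptor that directs D cyclins to breakdown, fell by 0.51 (0.000204).

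Upstream regulators of D cyclins and CDK inhibitors gave 4 higher and 10 lower of 19 tested at day 3 (median -0.52) and 3 higher and 9 lower at day 5 (-0.38) in control cells, and 5 and 10, then 6 and 9, in LysM-Cre cells. Myc rose at day 3 by 2.08 (SE 0.76, adjusted p 0.0239) from a mean of 9.91 CPM whose SD was 11.4 (n = 3). Cebpa, a myeloid factor that opposes division, fell by 2.71 (2.42e-07) at day 3, from 212 ± 42.9 to 32.3 ± 13.3 CPM. At day 5 Klf2 fell by 2.45 (4.19e-06) and Klf4 rose by 1.69 (1.31e-05).

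**Figure D5:**
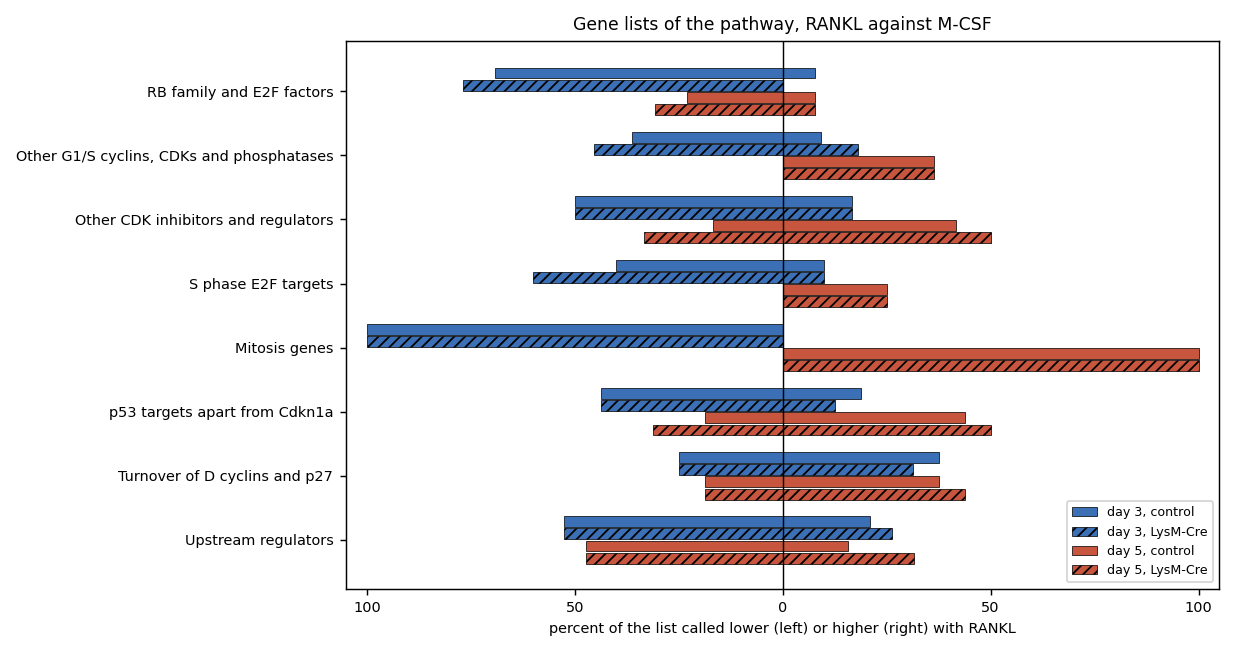
Percent of the tested genes of each of the 8 lists called lower (bars to the left) or higher (bars to the right) with RANKL than with M-CSF. Bars are given for days 3 and 5 in control and LysM-Cre cells (hatched). All 20 mitosis genes were called lower at day 3 and higher at day 5 in both genotypes.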

How the data were processed

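The authors deposited gene-level read counts, as whole numbers, in a table of 24 libraries. Libraries were made from 250 ng of RNA with a TruSeq RNA kit, per the labels' protocols. STAR, DESeq2 and GRCm39 are named, per the submitters' processing notes, without versions, and the sources used here do not give the strand setting. Of the deposited identifiers, 54495 were found in GENCODE M21 (GRCm38), and 53585 of these (98.3%) had the same position there, so positions are those of GRCm38. From the counts, edgeR 4.0.16 with limma 3.58.1 in R 4.3.3 was run with filterByExpr, TMM scaling and a robust quasi-likelihood fit of the 8 groups. Every adjusted p is Benjamini-Hochberg over 15035 genes and edgeR's unless DESeq2 (1.42.0) is named. CPM uses the TMM-scaled library sizes, and lengths are those of the deposited table. The script was tested on simulated data.

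The 10 members and the lists were chosen with earlier results of these data known. Named list genes are the largest called rise and fall in control cells at each day, at an average log2 CPM no lower than 1. Cdkn2b was given more values, and the opposite calls of Cdkn2d, Cdkn3 and Cdc25b were named, after the values were seen. Alternatives were DESeq2, its size factors in edgeR, no filter, a fit of only the compared libraries, the number as a block, each library left out, and the 4 LysM-Cre libraries numbered 3 left out. Counts under 150 per library (Cdkn1c, Cdkn2a) limit precision, and so do those of Ccnd2, which went down to 6 in a library.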

Additional observations from a re-analysis of the deposited data

Results flagged for a closer look

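The response to RANKL differed between days 3 and 5, by a test of the difference itself in edgeR, for Cdkn2c in control (log2 change of the response 2.40, adjusted p 3.2e-09) and LysM-Cre libraries (2.07, adjusted p 3.59e-08). The same held for Cdkn1a in control (1.10, adjusted p 0.000943) and LysM-Cre libraries (1.38, adjusted p 7.89e-05). These 4 calls held under every alternative tried. Cdk4 in LysM-Cre libraries (0.52, adjusted p 0.0362) was also called, and its call was lost in 10 of 24 fits that left out 1 library, when only the compared libraries were fitted (0.0535) and without the 4 libraries numbered 3 (0.0706).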

How the results depend on the processing

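Of 43 calls of the 10 genes, 26 held under every alternative. With only the compared libraries fitted, the genes called became 8 instead of 5 for RANKL at day 5 in control cells, 7 instead of 4 for day 5 against day 3 with RANKL in control cells, and 1 instead of 3 with M-CSF in LysM-Cre cells. With no filter on low counts the second of these was 2. Leaving out each library in turn gave 2 to 5 for it, 1 to 4 for M-CSF in LysM-Cre cells, and 2 to 7 (7 with all libraries) for RANKL in LysM-Cre cells, the lowest without LysM-Cre day 3 RANKL library 2.

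Values near 0 that were not called changed sign. For Cdkn1b with RANKL in LysM-Cre cells, -0.01 at day 3 became 0.040 in DESeq2 and with its size factors and 0.0066 with the block, with a range of -0.19 to 0.17 over libraries left out, and 0.06 at day 5 became -0.079 without the 4 libraries numbered 3, with a range of -0.035 to 0.15. Cdkn2a over time with M-CSF in LysM-Cre cells (-0.05) was 0.060 with the block, 0.52 without those 4 libraries and -0.43 to 0.68 over libraries left out. The change of the response between days, over libraries left out, was -0.46 to 1.41 (control) and -0.24 to 1.88 (LysM-Cre) for Ccnd1, -0.87 to 0.73 for Ccnd2 in control, -0.11 to 0.25 for Cdkn1b in LysM-Cre, and -0.66 to 0.19 for Cdkn1c in LysM-Cre cells (-0.79 without those 4). Over time with M-CSF the ranges were -0.036 to 0.29 (control) and -0.079 to 0.26 (LysM-Cre) for Ccnd3, and -0.065 to 0.15 for Cdk4 and -0.40 to 0.25 for Cdkn1c in control cells. With RANKL at day 3 in control cells they were -0.076 to 0.16 for Cdk4 and -0.37 to 0.18 for Cdkn1b. The cause was not tested.

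Fits of only the compared libraries moved these list counts with RANKL: S phase genes from 10 to 6 at day 3 in control cells (6 to 18 over libraries left out), and at day 5 from 5 to 17 in control and to 14 in LysM-Cre cells, where no filter gave 3 in each and leaving out the 4 libraries 2 in LysM-Cre cells. RB and E2F genes went from 4 and 5 to 9 in each genotype at day 5 (3 in LysM-Cre cells without the 4), other CDK inhibitors from 7 to 11 at day 5 in control cells, and upstream regulators from 15 to 9 at day 3 in LysM-Cre cells.

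The number in the titles was not treated as a pairing. Of 36 pairs of the same genotype and number, 21 had deviations correlated over 0.1, with a lowest of -0.16 and a median of 0.14. Pairs of the same genotype and different numbers passed 0.1 in 11 of 72, with a median of -0.06. Of 24 libraries, 17 correlated best with their own number. The 4 LysM-Cre libraries numbered 3 also stood apart by their Y-linked counts (542 to 847) on both days and in both media. Libraries of a number may thus share an origin, which was not tested. With the number as a replicate block no count of the 10 genes moved by over 1.5 times. Calls that changed were Ccnd2 over time with RANKL in LysM-Cre cells (adjusted p 0.088), and, gained in control cells, Cdk4 over time with RANKL (0.036), Cdkn1a over time with M-CSF (0.0070) and Cdkn2a with RANKL at day 5 (0.047).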
